A study of Rattus norvegicus with 6 samples.

Results

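The 9 genes described here carry, store and break down vitamin A in rat liver, and they were followed in 3 rats given nitrilotriacetic acid (NTA) and 3 given vehicle. They were chosen by symbol, and every non-control probe whose RefSeq accession maps to one of them was taken, which gave 12 of 61657 probes and 9 of the 15284 named genes on the array. The list was drawn up with the difference between NTA and vehicle already known, above all that of Cyp26a1. The differences of these 9 genes are therefore given as a description, with no test of their own. All 12 probes were well above background on all 6 arrays, so all 9 genes passed the filter on dim probes.

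Both groups were livers of male Sprague-Dawley rats of the Crl:CD(SD) stock, bought at 5 weeks of age and kept on a basal diet and tap water. The treated group received NTA trisodium monohydrate, a chelator of metal ions, at 1000 mg/kg/day. The sample labels give the vehicle as purified water and the time as 28 days, while the treatment protocol gives corn oil and 9 weeks, and which holds was not settled here. The protocol counts 3 animals per treatment, so each Cy3-labelled one-colour array was read as 1 rat, and no sample is described as a pool. Levels are log2 signal relative to the 75th percentile of the same array, and group means carry their SD over 3 rats (n = 3). The 75th percentile itself lay between 464 and 558 signal units, and the number of arrays limits the precision. All 12 hepatocyte markers examined were measured, and albumin (Alb), the main plasma protein made by hepatocytes, had a level of 9.91 ± 0.17 in vehicle rats and 9.70 ± 0.12 in NTA rats. The slide of the NTA arrays held no vehicle array, so the effects of slide and of treatment cannot be told apart. Vehicle replicate 3 shared neither its slide nor its scan day with another array.

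Vitamin A reaches the liver as retinyl ester. Hepatocytes release retinol on the carrier Rbp4, which travels in plasma bound to transthyretin (Ttr), and hepatic stellate cells store the surplus as ester made by Lrat. Retinol is oxidised to retinal by Rdh10 and returned to retinol by Dhrs3, and Bco1 makes retinal from beta-carotene. Retinal is oxidised further to retinoic acid, the ligand of the nuclear receptors RAR, which Crabp2 carries to the nucleus and the Cyp26 hydroxylases clear. Cyp26a1 is itself a classic target of RAR, which binds with RXR to direct repeats of a short half-site.

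The promoter of Cyp26a1 holds such a repeat, and it is shown because Cyp26a1 is the member with the most uniform difference between groups. The window runs from 250 bases before the start to 50 after it, in RefSeq's table for the build GRCr8, at chr1:244883572-244883871 on the + strand, and the half-sites are in capitals.
Cyp26a1 promoter: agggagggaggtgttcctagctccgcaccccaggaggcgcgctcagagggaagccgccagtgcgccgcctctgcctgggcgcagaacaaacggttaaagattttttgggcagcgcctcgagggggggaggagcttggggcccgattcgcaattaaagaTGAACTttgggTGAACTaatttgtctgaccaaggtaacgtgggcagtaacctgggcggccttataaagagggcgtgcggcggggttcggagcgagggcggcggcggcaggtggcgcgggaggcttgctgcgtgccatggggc
Repeat on the opposite strand: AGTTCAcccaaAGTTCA
The repeat lies between 92 and 76 bases before the start. Promoters were searched on both strands for any pair of the half-sites AGGTCA and AGTTCA in direct repeat, spaced by 1, 2 or 5 bases and each spacing counted by itself. The spacing of 5 was found in 10 of 33469 windows of 300 bases (0.0299%), the spacing of 1 in 0.0956% and the spacing of 2 in 0.0508%. Windows were matched for 8 of the 9 genes, and no other of these 8 held any of the repeats. Of the 10 genes with the spacing of 5, only Cyp26a1 and the macrophage receptor Marco had a measured level here. Marco was at 1.27 log2 above vehicle (SE 0.48; limma, Benjamini-Hochberg adjusted p = 0.62), or 0.81 without vehicle replicate 3. A match is a matter of letters and shows no binding in these livers.

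Both enzymes of retinoic acid breakdown on the list were higher in every NTA liver than in any vehicle liver, but with very different spread. Cyp26a1, the main retinoic acid hydroxylase of liver, was at −2.44, −2.52 and −2.44 in vehicle rats 1 to 3 and at −1.02, −1.00 and −0.94 in NTA rats 1 to 3. The groups lay 1.42 apart at their nearest points, while the rats within a group spanned 0.083 with vehicle and 0.072 with NTA. The means were −2.47 ± 0.05 and −0.99 ± 0.04, a 2.79-fold difference (log2 1.48, SE 0.09). Every SE given here is the moderated one of the limma fit, drawn toward the spread of all features. It therefore does not follow from the SDs of these rats alone.

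Cyp26b1, the sister hydroxylase, was at −4.22, −2.71 and −2.25 in the vehicle rats and at −0.78, −0.41 and −1.26 in the NTA rats. Vehicle rat 1 was far below the other vehicle rats, and the nearest pair of rats from different groups lay 0.99 apart. The means were −3.06 ± 1.03 and −0.82 ± 0.43, a 4.74-fold difference (log2 2.24, SE 0.51), and without vehicle replicate 1 the difference was 1.66. Both hydroxylases were dim with vehicle, though above background, at 81 to 97 signal units for Cyp26a1 and 28 to 111 for Cyp26b1.

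The spread within groups is part of the contrast behind the list, so it too is a description. The pooled SD of Cyp26a1, 0.043, was larger than that of only 0.965% of all 30353 features, which are named genes and unnamed probes past the background filter. That of Cyp26b1, 0.790, was larger than that of 97.7% of them. The smaller of the 2 differences was the more uniform between rats.

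In the limma fit over all features, 1 of the 9 genes, Cyp26a1, passed a Benjamini-Hochberg adjusted p under 0.05, beside 0.0297% of all features. The groups did not overlap for 2 of the 9 genes, Cyp26a1 and Cyp26b1, beside 13.6% of all features (5.57% higher, 8.03% lower). Since this contrast led to the list, nothing is read from these counts. Cyp26a1 no longer passed when any 1 of the 6 arrays was left out, although its difference then ran only from 1.45 to 1.50. Leaving out vehicle replicate 3 leaves the 5 arrays of scan day 1 (1.49). Normexp background correction was run with an offset of 50 signal units, which raises dim signals and by itself shrinks their log2 differences. With it the difference of Cyp26a1 was 0.91 and Cyp26a1 passed, and that of Cyp26b1 was 1.48. Each of these genes was matched by 1 probe, so no second probe could be compared.

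**Figure D1:**
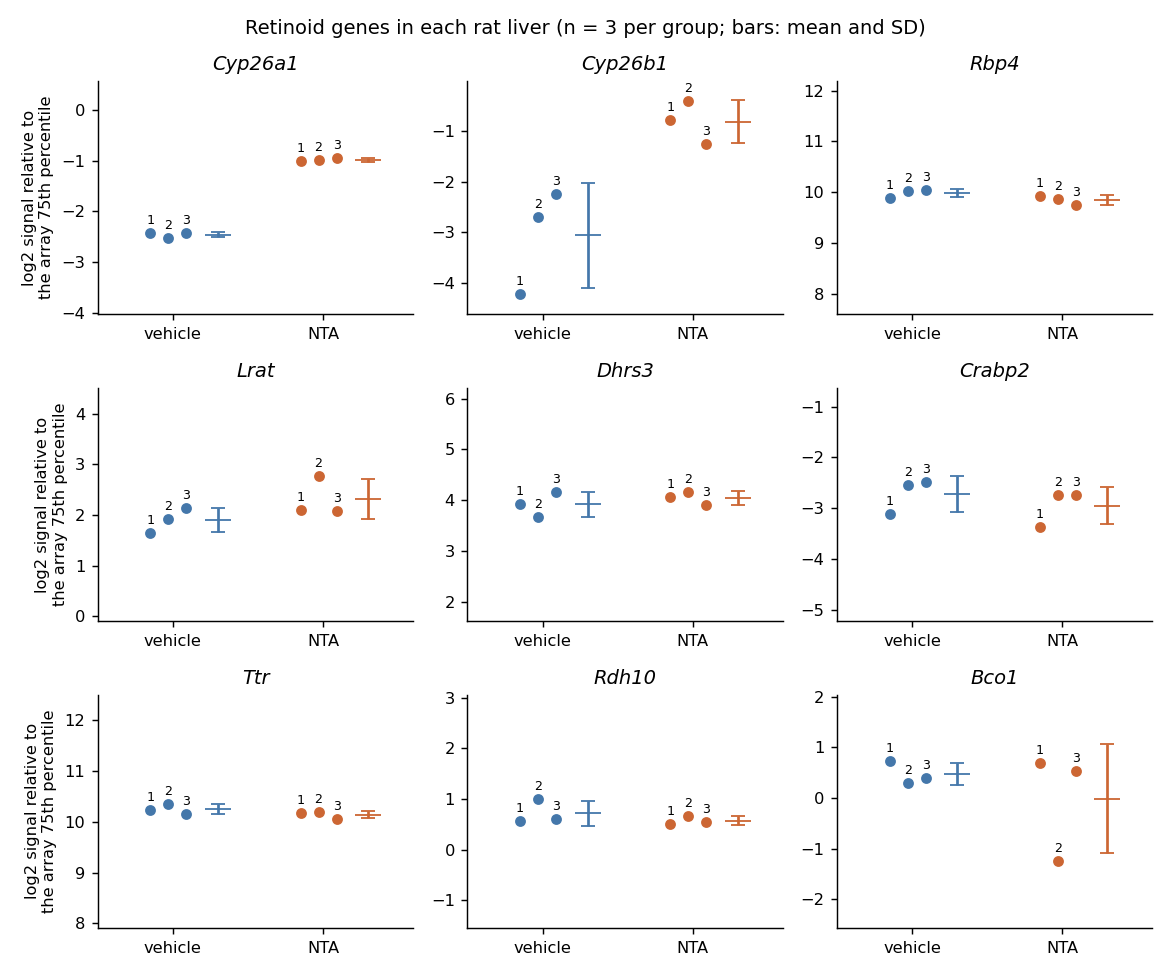
Log2 level against the 75th percentile of its array (vertical axis) for each of the 9 genes in each rat, with the replicate number over each point and the group mean and SD as a bar to the right. Every panel spans the same log2 range on its own level. The groups are apart for Cyp26a1 and Cyp26b1, and NTA rat 2 lies low for Bco1 and high for Lrat.

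Lrat, the acyltransferase that makes retinyl ester in stellate cells, was at 1.65, 1.92 and 2.13 in the vehicle rats and at 2.09, 2.76 and 2.09 in the NTA rats. NTA rat 2 was above all others, and the remaining NTA rats lay just under vehicle rat 3. The means were 1.90 ± 0.24 and 2.31 ± 0.39 (log2 difference 0.41, SE 0.23). Without NTA replicate 2 the difference was 0.19. A second, much dimmer probe of Lrat gave −3.62, −3.43 and −3.33 with vehicle and −3.06, −2.63 and −3.14 with NTA, a difference of 0.52 with the groups 0.18 apart. Both probes put NTA rat 2 highest and vehicle rat 1 lowest.

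Because Lrat marks stellate cells, their other markers were set beside it. Of 24 listed markers 22 were measured, 11 above 0 and 11 below 0, with a median log2 difference of 0.01 beside −0.03 for all features, and 0 passed in limma (1 with an unadjusted p under 0.05). Their summed signal, in multiples of the array's 75th percentile, ranged from 65.4 to 74.3 with vehicle and from 61.5 to 86.8 with NTA, with NTA rat 2 highest, and its part in the Lrat difference was not tested. Reelin (Reln), a protein secreted by stellate cells, was at 2.78 in NTA rat 2 and between 2.20 and 2.33 in the other rats. Reln was named after its values were seen, and the markers did not share 1 direction in that rat. The collagen Col3a1 (4.43) was also highest there, while Acta2 (−1.92) and Rgs5 (−1.47) were lowest there. The markers with the smallest p were the growth factor receptor Pdgfra at 0.37 (SE 0.13) and the collectin Colec10 at 0.78 (SE 0.36; limma, adjusted p = 0.59 and 0.69). The groups overlapped for Colec10, which was at 1.20 without vehicle replicate 1 and at 0.54 without vehicle replicate 2. In liver RNA, fewer cells of a type and less RNA per cell cannot be told apart.

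Rbp4 and transthyretin, the plasma carriers of retinol, differed little between groups. Rbp4 was at 9.88, 10.02 and 10.04 in the vehicle rats and at 9.93, 9.86 and 9.74 in the NTA rats, and the groups overlapped. The means were 9.98 ± 0.09 and 9.84 ± 0.09 (log2 difference −0.14, SE 0.11), and the second probe gave −0.09. The brightest probe gave −0.087 without NTA replicate 3 and −0.050 with quantile normalization.

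Ttr was at 10.23, 10.36 and 10.16 with vehicle and at 10.17, 10.19 and 10.06 with NTA, again with overlap. Its brightest probe gave a difference of −0.11 (SE 0.11), while its second probe gave −0.34 with all NTA rats below all vehicle rats, by 0.066 at the nearest points. The mean of both probes was −0.22. The brightest probe gave −0.054 without vehicle replicate 2, −0.068 without NTA replicate 3, −0.048 with normexp and −0.050 with quantile normalization. The probes of Rbp4 and Ttr gave processed signals of 370923 to 621146 units, below the scanner's saturation value of 778858 to 779116, and none was flagged as saturated. The brightest Ttr probe stayed at 595074 to 621146 units on all arrays, so its scaled values largely follow the 75th percentile. They were highest in vehicle rat 2, which had the lowest 75th percentile (464). Compression of such bright signals was not tested. Over the 12 hepatocyte markers, 9 lay below 0 with a median difference of −0.15. The small differences of Rbp4 and Ttr were no larger than that median on their brightest probes. With quantile normalization the hepatocyte median was −0.067, beside −0.050 for both Rbp4 and Ttr. The summed hepatocyte signal was 6232 to 6492 with vehicle and 5611 to 5863 with NTA, and its part in these differences was not tested. This sum is also scaled to the 75th percentile. It was highest in vehicle rat 2 (75th percentile 464, the lowest) and lowest in NTA rat 3 (558, the highest). Vehicle rats 1 and 3 (518 and 527) had sums of 6232 and 6359. NTA rats 1 and 2, with like 75th percentiles (524 and 516), had sums of 5818 and 5863. Whether the groups stay apart in this sum under another scaling was not tested.

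Of the enzymes that interconvert retinol and retinal, Dhrs3, the retinal reductase, was at 3.92, 3.66 and 4.17 in the vehicle rats and at 4.06, 4.16 and 3.89 in the NTA rats. The NTA rats lay within the vehicle range, with a difference of 0.12 (SE 0.16), or −0.0036 without vehicle replicate 2. Rdh10, the retinol dehydrogenase, was at 0.56, 1.01 and 0.61 with vehicle and at 0.51, 0.67 and 0.54 with NTA. Vehicle rat 2 stood above the rest, and the difference of −0.15 (SE 0.15) was −0.0088 without it.

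Bco1, the beta-carotene cleaving enzyme, was at 0.73, 0.30 and 0.40 with vehicle and at 0.69, −1.25 and 0.53 with NTA. A single rat, NTA rat 2, set the group apart in its mean: the difference was −0.49 (SE 0.50) with all rats and 0.13 without NTA replicate 2. Crabp2, the retinoic acid carrier, was dim, at −3.12, −2.54 and −2.48 with vehicle and −3.37, −2.74 and −2.73 with NTA. Replicate 1 was lowest in both groups, and the difference was −0.23 (SE 0.25), or −0.024 without NTA replicate 1. Across the 9 genes 4 lay above 0 and 5 below 0, with a median of −0.11 (0.06 without NTA replicate 2), beside 43.9% of all features above 0.

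**Figure D2:**
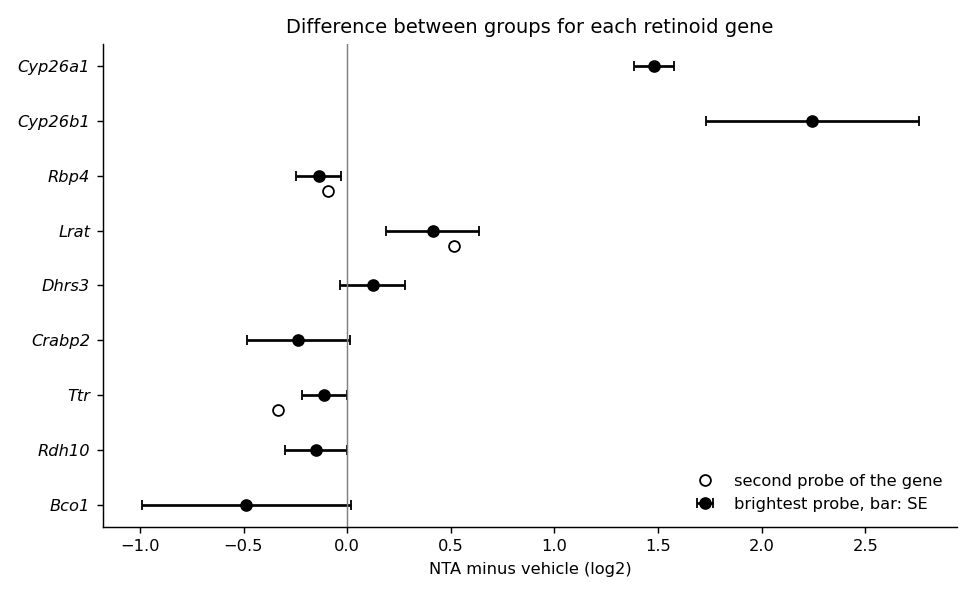
NTA minus vehicle on the log2 scale (horizontal axis) for each gene, with filled points and SE bars for the brightest probe and open points for the second probe of Rbp4, Lrat and Ttr. Cyp26a1 (1.48) and Cyp26b1 (2.24) stand to the right, and the other brightest probes lie between −0.49 and 0.41.

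**Figure D3:**
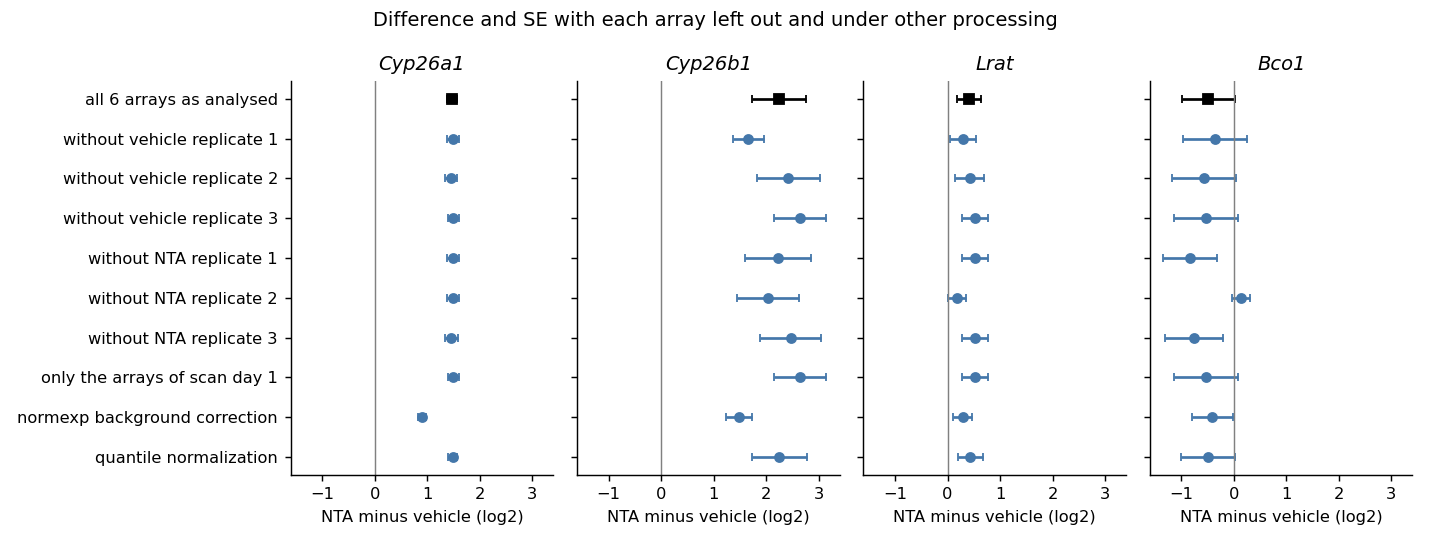
NTA minus vehicle (log2, horizontal axis) with its SE for Cyp26a1, Cyp26b1, Lrat and Bco1 with all 6 arrays, with each array left out, with the arrays of scan day 1 alone and under other processing. The arrays of scan day 1 are those left without vehicle replicate 3. Cyp26a1 moves little except with normexp (0.91), and Bco1 crosses 0 without NTA replicate 2.

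No gene in the rest of the pathway was called, as was true of nearly all features. From 6 lists of retinoid genes outside the 9, with 89 genes in all, 70 had a probe and 60 were measured. In limma 0 of these 60 passed, beside 0.0297% of all features, a share so small that 0 of 60 says little. An unadjusted p under 0.05 was found for 3, 1 higher and 2 lower, beside 7.57% of all features (3.66% higher, 3.91% lower). The groups did not overlap for 4 genes higher and 2 lower, beside 13.6% of all features. Of the 60 genes 30 lay above 0 and 30 below 0, with a median of −0.0016, beside −0.03 for all features.

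Uptake and carrier proteins spanned the widest range of the 6 lists, from −1.19 to 1.52. Of 14 listed genes 11 were measured, with a median of 0.06. Cd36, a scavenger receptor that takes up fatty acids and carotenoids, was at 2.48, 2.11 and 2.39 with vehicle and 4.58, 3.77 and 3.19 with NTA, and the lowest NTA rat lay above the highest vehicle rat (log2 difference 1.52, SE 0.34; limma, Benjamini-Hochberg adjusted p = 0.48). Rbp7, a cellular retinol-binding protein, was at −2.90, −1.81 and −2.42 with vehicle and −4.25, −3.24 and −3.22 with NTA, below all vehicle rats (−1.19, SE 0.38; limma, adjusted p = 0.56, and −0.59 with normexp).

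The oxidoreductases of retinol and retinal held 22 listed and 15 measured genes, 5 above 0 and 10 below 0, with a median of −0.06 and 0 passing in limma. Those with the smallest p were Rdh8, a retinol dehydrogenase best known from photoreceptors, at −0.27 (SE 0.12; −0.076 with normexp and −0.18 without NTA replicate 2), and Aldh1a1, which oxidises retinal to retinoic acid, at 0.96 (SE 0.55). Aldh1a1 was at 5.46, 4.76 and 6.18 with vehicle and 7.10, 6.86 and 5.32 with NTA, so that NTA rat 3 lay within the vehicle range. Leaving out NTA replicate 3 gave a difference of 1.52, and leaving out vehicle replicate 2 gave 0.61. For retinyl ester formation and hydrolysis 10 of 13 genes were measured, with a median of 0.03 and 0 passing. The carboxylesterases Ces1e and Ces1f had the smallest p, at 0.25 (SE 0.12) and 0.21 (SE 0.12), each without overlap between groups. Ces1e was at 0.16 with the mean of its probes, and Ces1f at 0.13 without vehicle replicate 1. The limma adjusted p of these 4 genes lay between 0.687 and 0.745.

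Of the other genes of retinoic acid clearance 6 of 8 were measured, with a median of −0.02 and 0 passing. Ugt2b1, a glucuronosyltransferase, was at 0.71 (SE 0.31) and Cyp2s1, a cytochrome P450, at −0.56 (SE 0.37; limma, adjusted p = 0.67 and 0.78). Cyp2s1 rested on NTA rat 1, without which it was at −0.11, and it was at −0.25 with normexp. Nuclear receptors and cofactors (10 of 16 measured) had a median of −0.01 and 0 passing. Rxra, the partner of RAR in liver, was at 0.29 (SE 0.13) and the corepressor Nrip1 at −0.45 (SE 0.27; limma, adjusted p = 0.68 and 0.75), or −0.068 for Nrip1 with the mean of its probes. Nrip1 was at −0.25 without NTA replicate 3 and −0.70 without vehicle replicate 3.

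Known retinoic acid responders other than the 9 genes were examined in the same way. Of 21 listed genes 14 had a probe and 12 were measured, 6 above 0 and 6 below 0, with a median of 0.01. In limma 0 passed, beside 0.0297% of all features, and 1 had an unadjusted p under 0.05, in the lower direction. Nrip1, given above, is also on this list.

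**Figure D4:**
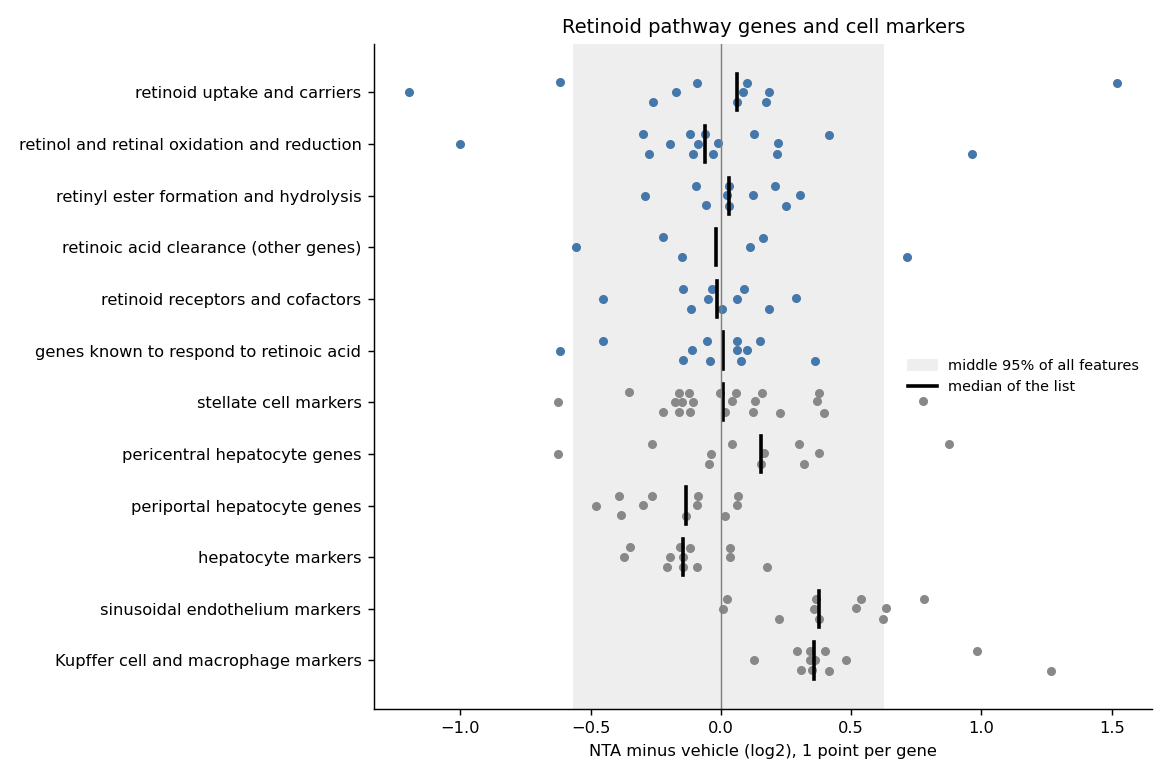
NTA minus vehicle (log2, horizontal axis), 1 point per measured gene, for the 6 retinoid pathway lists (blue) and for cell type and zonation lists (grey), with the median of each list as a black bar and the middle 95% of all features, −0.56 to 0.62, shaded. The retinoid medians lie between −0.06 and 0.06, and the endothelial and macrophage medians are 0.38 and 0.36.

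Markers of other liver cells were set beside these genes, and their part in the Cyp26a1 and Cyp26b1 differences was not tested. Of 14 listed markers of sinusoidal endothelium 11 were measured and all 11 lay above 0 (median 0.38), and 0 passed in limma (8 with an unadjusted p under 0.05, all higher, beside 3.66% of all features). Their summed signal was 74.0 to 90.5 with vehicle and 98.2 to 110.7 with NTA. The 2 with the smallest p were the receptor kinase Tie1 at 0.63 (SE 0.14) and the hyaluronan receptor Lyve1 at 0.54 (SE 0.12; limma, adjusted p = 0.48 for both), and Lyve1 was at 0.32 with normexp. Macrophage markers (12 of 12 measured, 12 above 0, median 0.36) summed to 140 to 283 with vehicle and 200 to 392 with NTA, so the groups overlapped, and the median was 0.07 without vehicle replicate 3 and 0.10 without NTA replicate 3. In limma 0 of them passed (2 with an unadjusted p under 0.05), and the macrophage receptor Trem2 had the smallest p, at 0.98 (SE 0.27; adjusted p = 0.52), or 0.21 with normexp. Erythroid markers (8 of 9 measured, 7 above 0, 0 passing in limma and 4 higher with an unadjusted p under 0.05, beside 3.66% of all features) summed to 578 to 640 with vehicle and 710 to 1120 with NTA.

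Genes of pericentral hepatocytes, the zone in which Cyp26a1 is known to be expressed, were also examined. Of 12 listed 11 were measured, 7 above 0, with a median of 0.15, summing to 536 to 590 with vehicle and 552 to 680 with NTA. The ammonium transporter Rhbg was at 0.87 (SE 0.28) and glutamine synthetase (Glul) at 0.32 (SE 0.16; limma, adjusted p = 0.56 and 0.70), and Glul was at 0.19 without NTA replicate 3. Periportal genes (11 of 11 measured, 8 below 0) had a median of −0.13, summing to 900 to 1089 and 755 to 1235. The lipid droplet enzyme Hsd17b13 and histidase (Hal) were at −0.39 (SE 0.16) and −0.48 (SE 0.23; limma, adjusted p = 0.66 and 0.70). Hsd17b13 was at −0.24 without NTA replicate 3, and Hal at −0.26 without NTA replicate 1 and −0.30 without vehicle replicate 2. In limma 0 genes of either zone passed, with 1 higher pericentral and 1 lower periportal gene at an unadjusted p under 0.05. Without NTA replicate 3 the pericentral median was −0.060, and without NTA replicate 1 the periportal median was 0.0048, so neither zone's direction held with every array left out.

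**Figure D5:**
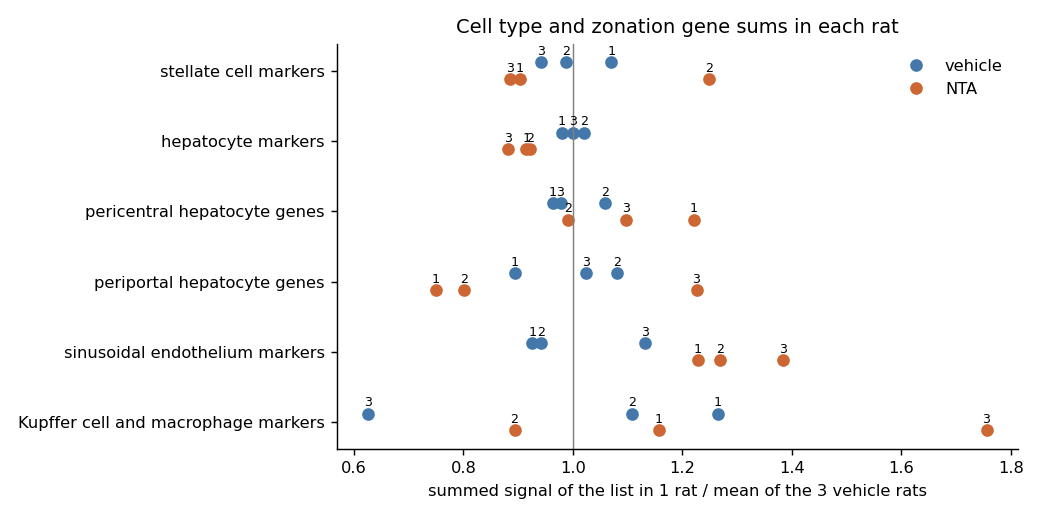
Summed signal of 6 lists of cell type and zonation genes in each rat, divided by the mean of the 3 vehicle rats (horizontal axis), with the replicate number over each point. Sums are led by the brightest genes of a list. The groups are apart for endothelial (98.2 to 110.7 against 74.0 to 90.5) and hepatocyte markers, and NTA rat 2 is highest for stellate markers. All sums rest on the scaling of the arrays, and whether the groups stay apart under another scaling was not tested.

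The genes most like Cyp26a1 over the 6 arrays were found by Pearson correlation among 10836 other named genes above background on all arrays. Since the arrays fall into groups, the correlation mostly ranks genes by how cleanly those groups part, and it is given as a description. The 5 highest were the metalloproteinase inhibitor Timp1 (r = 0.996), the mitochondrial ADP/ATP carrier Slc25a4 (0.991), the glutathione transferase Gstp1 (0.991), Afap1l1 (0.990) and the organic anion transporter Slco2b1 (0.984). Their log2 differences were very unlike, at 0.16 for Timp1 (0.31 with normexp), 0.47 for Slc25a4 and 2.70 for Gstp1. Afap1l1 was at 0.42 and Slco2b1 at 0.23. Of these 5 genes Gstp1 alone was called (limma, adjusted p = 0.0064). The limma adjusted p of the others lay between 0.45 (Slc25a4) and 0.74 (Timp1). Timp1 was at 1.44 in all 3 vehicle rats and between 1.59 and 1.61 in the NTA rats. The gene with the lowest correlation was Armc9 (r = −0.994), at −0.57 with its brightest probe and −0.23 with the mean of its probes. In all, 38 genes had r of at least 0.95 and 31 of at most −0.95.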

How the data were processed

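The deposited scanner files hold each spot's background-subtracted intensity (processed signal), made with Agilent Feature Extraction 10.7.1.1 per the file headers (10.7 per the submitters' processing notes). The authors' deposited series table is a linear ratio: 100% of its probes matched processed signal over the array's 75th percentile within 0.0001 plus 0.2%. It was used only as an alternative.

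Main values were log2 processed signal minus log2 of the array's 75th percentile over non-control probes, with non-uniform spots (1 to 14 per array) set to missing. Accessions were named through RefSeq's GRCr8 gene table (27460 probes with 1 symbol, 34197 with none). The brightest probe stood for a gene. Probes were kept if well above background on all 3 arrays of a group, leaving 30353 features. They were fitted together in limma 3.58.1 (R 4.3.3; lmFit and eBayes, 4 residual and 2.54 prior degrees of freedom), two-sided, with Benjamini-Hochberg adjustment and a threshold of 0.05. The fit was tested on simulated data. With 3 against 3 an exact permutation test cannot go below 0.1.

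The 9 genes, the other lists and the alternatives were chosen with earlier results of these data known. The text names all 9 genes, up to 4 called or else the 2 genes of smallest p per list discussed, and the 5 genes most and 1 least like Cyp26a1. This rule was not applied to the hepatocyte, biliary, erythroid, lymphocyte and adipocyte lists. Named outside it were Alb and, after their values were seen, Reln, Col3a1, Acta2, Rgs5 and Retsat. A gene that this rule would name is not reported here. Lists of biliary, erythroid, lymphocyte and adipocyte markers had 0 called genes and medians of 0.07, 0.53, 0.27 and −0.09. Without NTA replicate 3 the biliary median was −0.14 and the lymphocyte median 0.00095. The adipocyte list holds Fabp4, a fatty acid carrier, at 2.58 (SE 0.24; limma, adjusted p = 0.069, or 0.034 with a trended and robust prior). Fabp4 was dim and at 1.09 with normexp. Its limma adjusted p was under 0.05 in only 1 of the 12 other alternatives and in 0 of the 6 leave-outs. The normexp alternative used median spot and local background intensities of the deposited files, in place of the mean spot signal that had been planned. The planned protein comparison was not made, and Rdh10 had no promoter match.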

Additional observations from a re-analysis of the deposited data

How the results depend on the processing

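Cyp26a1 was higher with NTA under all 18 alternatives. It stayed called under 9 of the 12 that changed the processing or the model and under none of the 6 that left 1 array out, where its log2 difference ran from 1.45 to 1.50. With scan day as a block, or with the arrays of scan day 1 alone, Cyp26a1 was 1.49 and not called. Both are the same fit as leaving out vehicle replicate 3. The deposited series table matched the main values, and the correlation within slides was −0.006, so those alternatives hardly differ from the main fit. Not all 18 alternatives are therefore separate checks. The replicate numbers did not pair the rats: deviations of same-numbered rats correlated at 0.17, −0.0064 and −0.075. With the replicate number as a block Cyp26a1 was 1.48 and not called, and 0 features were called, against 9. Leaving out 1 array gave 1 to 8 called features, the lowest without NTA replicate 2 and 4 without NTA replicate 1. Called retinoid pathway genes were 0 under all 18 alternatives. The other 8 genes kept their sign under those 12 alternatives, and 6 of them under all leave-outs, the exceptions being Bco1 and Dhrs3. With normexp the difference of Cyp26a1 was 0.91, that of Cyp26b1 1.48 and that of Crabp2 −0.093.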

Other observations

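NTA rat 2 stood at an end of the range for several retinoid genes, as seen after the values were known, but other rats did so too. It was the highest of the 6 rats for Cyp26b1 (−0.41) and Lrat (2.76) and the lowest for Bco1 (−1.25). Retsat, which saturates retinol to dihydroretinol, was also lowest in that rat, at 3.56 against 4.96 to 6.51 in the other rats. Vehicle rat 2 was lowest for Cyp26a1 (−2.52) and Dhrs3 (3.66). It was highest for Rdh10 (1.01) and for the brightest probe of Ttr (10.36). Standing at an end of the range is therefore not particular to NTA rat 2, but the distance to the next rat differed. For the genes lowest in NTA rat 2, the next lowest rat was at 0.30 (Bco1) and 4.96 (Retsat). For those lowest in vehicle rat 2, it was nearer, at −2.44 (Cyp26a1) and 3.89 (Dhrs3).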
